A study of Mus musculus with 2 samples.

Results

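Heparan sulfate is made and edited by a chain of enzymes, and the 10 genes described here cover its main steps: the chain polymerases Ext1, Ext2 and Extl3, the modifying enzymes Ndst1, Glce, Hs2st1, Hs6st2 and Hs6st3, and the extracellular sulfatases Sulf1 and Sulf2. They were chosen by name, as the rows of the count matrices that carry these symbols, and are 10 of the 32285 genes measured. Counts of unique molecular identifiers (UMIs), each standing for 1 captured RNA molecule, came from 10x single-nucleus sequencing of frozen mouse kidney. One library was from a sham-operated group and one from a group with 5/6 nephrectomy, a model of lost kidney mass made by taking out the right kidney and tying off the poles of the left one a week later. All mice were male, were 11 weeks old at surgery and carried the genotype written as T1+/+ in the labels, and kidneys were taken 4 weeks after surgery. The labels do not say how many mice went into a library or which part of the remnant kidney was used. With 1 library per group there is no replicate, so no test between the groups was possible. The intervals below are at 95% and cover counting error only, not the variation between nuclei or between animals. Those of levels and ratios take each UMI as independent, although some genes had most of their UMIs in few nuclei.

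Heparan sulfate is a linear sugar chain carried by core proteins such as syndecans, glypicans and perlecan at the cell surface and in basement membranes, the glomerular one included. Ext1 and Ext2 form the polymerase that lengthens the chain, and Extl3 starts it. Ndst1 then replaces acetyl by sulfate groups on glucosamine, Glce turns glucuronic into iduronic acid, Hs2st1 sulfates the uronic acid and the Hs6st enzymes sulfate glucosamine at the 6 position. Sulf1 and Sulf2 remove those 6-O-sulfates outside the cell. The pattern of 6-O-sulfates sets how well the chain binds fibroblast growth factors, VEGF and other ligands.

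The sham library held 3084 barcodes with 21365116 UMIs, and the nephrectomy library 3299 with 28284727. After filtering, 2810 and 3010 nuclei remained, with medians of 5217 and 6952.5 UMIs. The libraries shared 2 barcodes. Nuclei were clustered without the 10 genes or other genes of the pathway and named from marker genes, so a name such as podocyte-like means nuclei that carry the markers of that type. In 9 classes, each library had at least 30 nuclei: proximal tubule-like (1318 sham and 1412 nephrectomy nuclei), thick ascending limb-like (413 and 379), distal convoluted or connecting tubule-like (239 and 326), blood endothelium-like (210 and 238), fibroblast-like (78 and 87), principal cell-like (69 and 79), podocyte-like (45 and 78), intercalated type B-like (34 and 54) and intercalated type A-like (31 and 39). Thin limb-like (24 and 17), parietal epithelium-like (14 and 46) and mural and mesangial-like nuclei (26 and 22) were too few for the comparison of groups, and their levels are given as values. Injured proximal tubule-like nuclei numbered 0 in sham and 15 after nephrectomy, and the levels of that class are not given. The defining markers fitted the labels of the classes that matter most here. Nphs1 had a UMI in 100% and 97.4% of podocyte-like nuclei, Pdgfra in 84.6% and 78.2% of fibroblast-like nuclei, Slc4a1 in 67.7% and 64.1% of intercalated type A-like nuclei and Slc26a4 in 97.1% and 92.6% of intercalated type B-like nuclei. Proximal tubule-like nuclei were not made up alike, since 1 of their clusters held 209 sham and 1 nephrectomy nuclei and another 94 and 477.

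RefSeq promoter windows on GRCm38.p6 were at hand for 6 of the 10 genes: Ext2, Glce, Hs2st1, Hs6st2, Hs6st3 and Sulf2. The 250 bases before the start site are printed for 3 of them, because Ext2 was detected in each of the 9 classes while Hs6st2 and Hs6st3 had most of their UMIs in a few. The windows are Ext2 at chr2:93822569-93822818 (minus strand), Hs6st2 at chrX:51681603-51681852 and, for a second start site, chrX:51680478-51680727 (both minus strand), and Hs6st3 at chr14:119138015-119138264 (plus strand). Each reads 5′ to 3′ toward the start site, and capitals mark matches on either strand to 5 short motifs: the TATA box (TATAAA), the CCAAT box, the GC box (GGGCGG), a forkhead-type core (TAAACA) and an HNF1-type half-site (GTTAAT). No 2 of the marked matches overlap.
Ext2: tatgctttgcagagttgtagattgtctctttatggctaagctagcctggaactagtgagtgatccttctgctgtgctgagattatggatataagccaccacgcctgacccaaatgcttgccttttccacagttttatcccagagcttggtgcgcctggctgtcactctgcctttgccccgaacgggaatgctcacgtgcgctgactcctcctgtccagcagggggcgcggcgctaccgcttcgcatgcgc
Hs6st2, upstream start: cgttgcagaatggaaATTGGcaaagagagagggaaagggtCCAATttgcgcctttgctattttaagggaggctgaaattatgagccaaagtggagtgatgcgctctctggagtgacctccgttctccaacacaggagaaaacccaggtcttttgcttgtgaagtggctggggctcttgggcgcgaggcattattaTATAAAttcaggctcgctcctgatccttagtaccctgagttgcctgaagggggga
Hs6st2, downstream start: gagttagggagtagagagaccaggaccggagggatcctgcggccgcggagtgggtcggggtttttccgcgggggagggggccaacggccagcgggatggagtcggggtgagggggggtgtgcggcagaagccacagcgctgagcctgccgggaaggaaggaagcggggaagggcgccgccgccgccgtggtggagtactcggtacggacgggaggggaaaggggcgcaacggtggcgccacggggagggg
Hs6st3: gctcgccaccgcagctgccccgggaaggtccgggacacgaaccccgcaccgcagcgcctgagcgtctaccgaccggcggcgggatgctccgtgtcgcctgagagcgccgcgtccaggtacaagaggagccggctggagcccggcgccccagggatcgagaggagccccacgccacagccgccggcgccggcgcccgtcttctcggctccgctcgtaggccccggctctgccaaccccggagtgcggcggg
The Hs6st3 window was 76.0% G or C, a share that 97.0% of all 32851 promoter windows of this length did not exceed, and held 36 CpG pairs. It had none of the 5 motifs. The upstream Hs6st2 window was 50% G or C with 7 CpG pairs, and had 1 TATA box and 2 CCAAT box matches, whereas the downstream one was 72.0% G or C with 26 CpG pairs and no match. The Ext2 window was 54.8% G or C with 12 CpG pairs and no match. Over all windows, 12.4% held the TATA box, 33.8% the CCAAT box, 32.7% the GC box, 12.0% the forkhead-type core and 6.43% the HNF1-type half-site. A match describes the letters only, and no match says nothing about a factor.

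Levels below are UMIs per 1000000 UMIs of the class (CPM), and they are compared for 1 gene across classes, not between genes. The 10 genes fell into widely detected ones (Ext1, Ext2, Extl3, Ndst1, Glce, Hs2st1), Sulf2 with its highest levels in endothelium-like and distal tubule-like nuclei, and 3 with most of their UMIs in a few classes (Sulf1, Hs6st3, Hs6st2). In the heat map of levels by class, the last 3 stand out by their dark rows with a few bright fields.

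**Figure D1:**
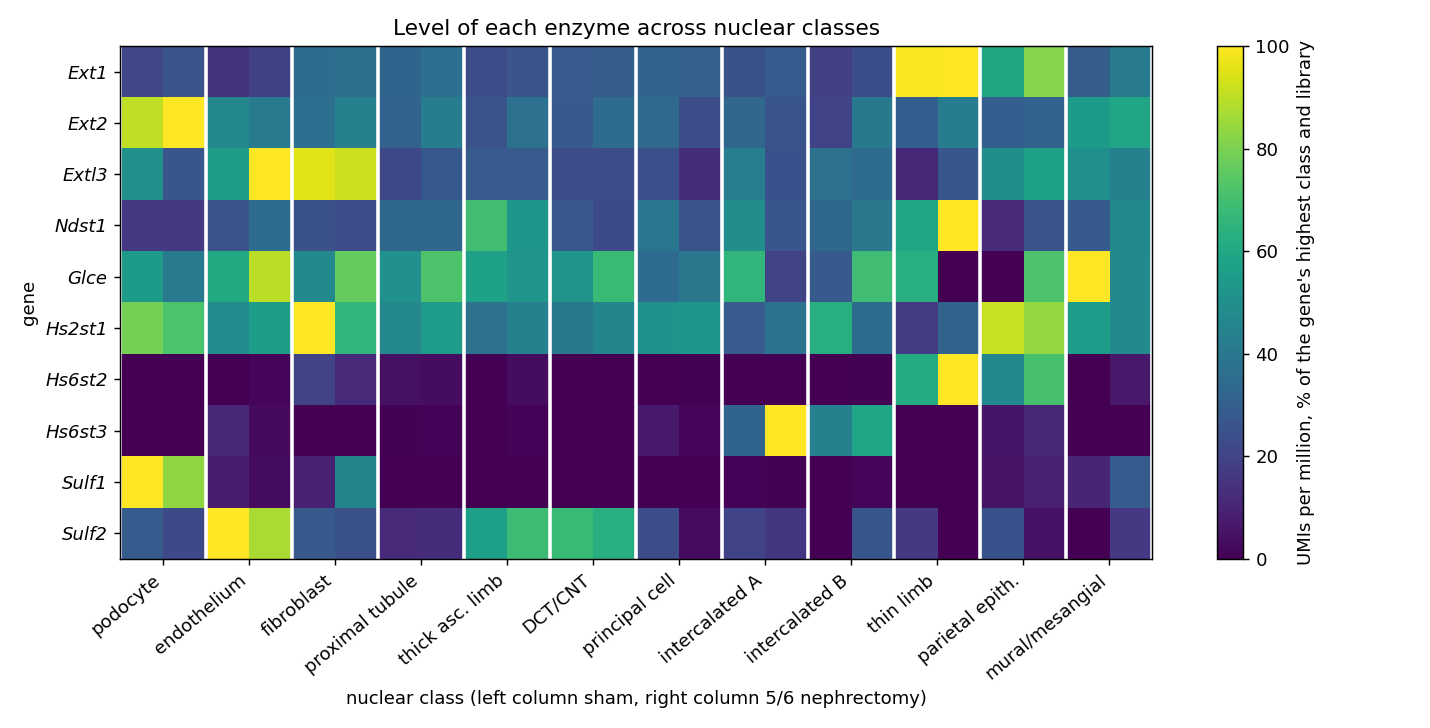
Level of each of the 10 genes (rows) in 12 nuclear classes (columns in pairs, sham left and 5/6 nephrectomy right), as CPM in percent of that gene's highest class and library. Sulf1 is bright in podocyte-like nuclei, Hs6st3 in intercalated-like nuclei and Hs6st2 in thin limb-like and parietal epithelium-like nuclei. The thin limb, parietal epithelium and mural classes rest on 14 to 46 nuclei per library.

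Over the whole library, 2 of the 10 genes were at least 1.5-fold higher after nephrectomy, Hs6st3 and Sulf1, and 0 were at least 1.5-fold lower. Of all 17262 genes with at least 20 UMIs, 9.59% were that much higher and 10.8% that much lower. The other 8 had ratios of nephrectomy to sham between 0.906 for Ndst1 and 1.29 for Ext2 and Glce. Of the 90 pairs of gene and class, 67 had at least 20 UMIs. In 8 of these (11.9%) the gene was at least 1.5-fold higher and in 10 (14.9%) at least 1.5-fold lower, against 12.2% and 13.9% of all gene and class pairs. Those shares are near the background, so what follows describes single genes and says nothing of a shift of the enzymes as a group. In distal convoluted or connecting tubule-like nuclei 0 of the 7 genes with enough UMIs passed 1.5-fold, where 7.93% of all genes were higher and 15.8% lower. For 5 of the 8 higher and 4 of the 10 lower pairs, the counting interval of the ratio did not reach 1. The share of all gene and class pairs with such intervals was not counted, so these counts describe single pairs only.

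**Figure D2:**
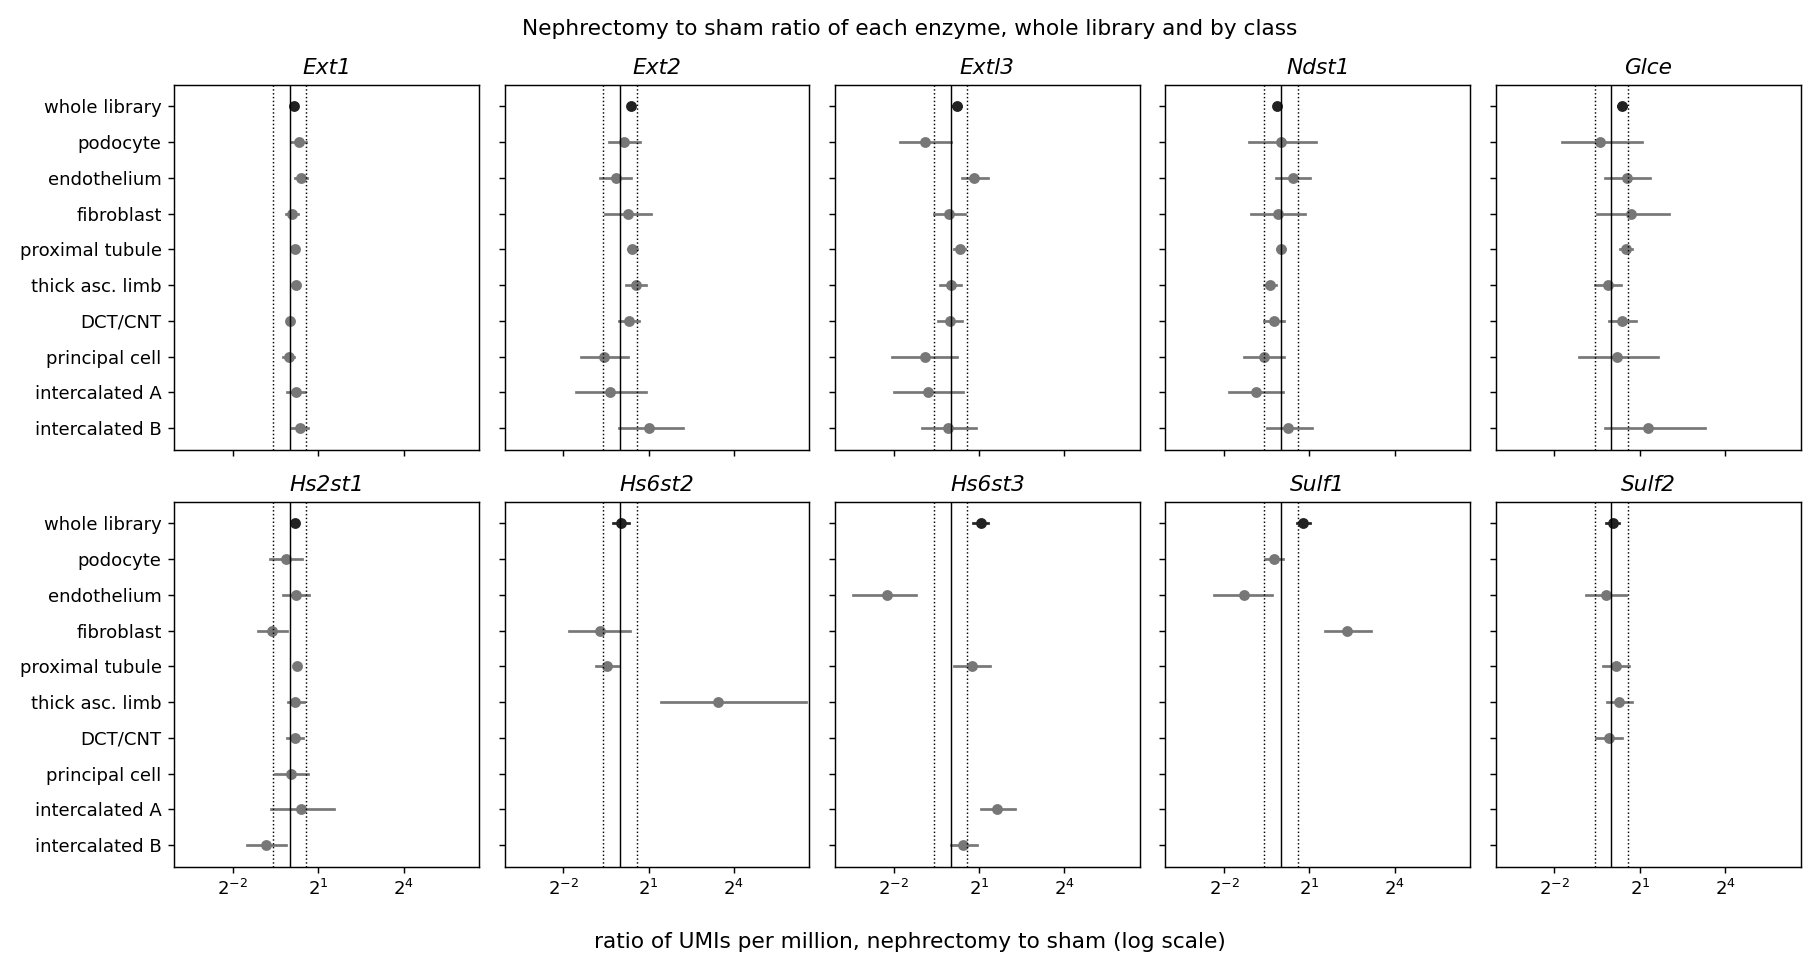
Ratio of CPM, nephrectomy to sham (x axis, log scale), for each gene in the whole library and the 9 classes (rows), where the gene had at least 20 UMIs. Points are ratios, lines their 95% counting intervals, the solid line marks no difference and the dotted lines 1.5-fold either way. Most points lie between the dotted lines, and Sulf1 in fibroblast-like nuclei and Hs6st3 in intercalated type A-like nuclei lie to the right with intervals clear of 1.

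The chain polymerases were detected throughout the kidney. Ext1 (chromosome 15, 53064038 to 53346159, minus strand) was detected in 72.7% (sham) and 79.0% (nephrectomy) of all nuclei. Among the 9 classes it was lowest in blood endothelium-like nuclei, at 408 CPM in sham (361 to 459) and 534 after nephrectomy (487 to 586). Fibroblast-like nuclei (963 and 1018 CPM) and proximal tubule-like nuclei (895 and 1007) stood at the top with overlapping intervals. The small thin limb-like class was higher than these, at 2730 CPM (2435 to 3051) and 2761 CPM (2435 to 3120), and all but 1 of its 41 nuclei had an Ext1 UMI. Parietal epithelium-like nuclei came next, at 1640 and 2262 CPM. Ext1 did not pass 1.5-fold in any of the 9 larger classes, with ratios from 0.975 in principal cell-like to 1.31 in endothelium-like nuclei.

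Ext2 (chromosome 2, 93661028 to 93822568, minus strand), the partner of Ext1 in the polymerase, had its highest level in podocyte-like nuclei, the cells that wrap the glomerular capillaries. There it stood at 160 CPM in sham (115 to 216) and 177 after nephrectomy (145 to 214). Among the 9 larger classes the next was endothelium-like in sham, at 82.2 CPM (61.9 to 107), and fibroblast-like after nephrectomy, at 77.2 (54.0 to 107). The podocyte-like level was 1.95 times the next in sham (1.27 to 2.96) and 2.29 times after nephrectomy (1.56 to 3.44), and the intervals of neighbouring classes below it overlapped. The small mural and mesangial-like class had 96.2 and 105 CPM, from 12 UMIs in each library. Between the libraries Ext2 was 1.35-fold higher in proximal tubule-like nuclei (interval 1.22 to 1.5, 625 and 1024 UMIs) and 1.47-fold higher in thick ascending limb-like nuclei (1.15 to 1.87, 109 and 193 UMIs). It passed 1.5-fold in intercalated type B-like nuclei alone, with 9 and 46 UMIs and an interval of 0.972 to 4.67, in a class where 21.6% of all genes were at least 1.5-fold higher and 15.3% lower.

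Extl3 (chromosome 14, 65052060 to 65149855, minus strand), which adds the first sugar of the chain, was highest in fibroblast-like and endothelium-like nuclei. Fibroblast-like nuclei had 152 CPM in sham (114 to 200) and 148 after nephrectomy (115 to 187), nearly the same value. Endothelium-like nuclei had 89.7 CPM (68.4 to 115) from 60 UMIs in sham and 160 CPM (135 to 189) from 137 UMIs after nephrectomy. The endothelial intervals did not overlap, and the ratio was 1.79 (1.31 to 2.46). In this class 9.83% of all genes tested were at least 1.5-fold higher and 12.1% lower. Extl3 UMIs lay in 41 of 210 sham and 75 of 238 nephrectomy nuclei, with at most 4 and 6 in any nucleus, so they were spread over many nuclei. The ratio was below 1.5 with doublet-like nuclei kept (1.40) and with equal weight per nucleus (1.47). Extl3 was more than 1.5-fold lower in podocyte-like (0.537), principal cell-like (0.533) and intercalated type A-like nuclei (0.583), where no library had more than 26 UMIs and the first interval ended at 1 while the others spanned 1. The shares of all genes at least 1.5-fold higher and lower were 16.5% and 13.5% in podocyte-like and 11.6% and 16.4% in principal cell-like nuclei.

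Among the modifying enzymes, Ndst1 (chromosome 18, 60684494 to 60748650, minus strand), which sets the sites for the later steps, was highest in thick ascending limb-like nuclei among the 9 classes. It stood at 156 CPM there in sham (140 to 172, 375 UMIs) and 119 after nephrectomy (107 to 133, 347 UMIs). Its interval overlapped that of the next class in both libraries, intercalated type A-like in sham (111 CPM) and type B-like after nephrectomy (90.3 CPM). Podocyte-like nuclei had the lowest level in both libraries, 38.1 and 38 CPM. The thick ascending limb-like ratio of 0.766 (0.660 to 0.889) was short of 1.5-fold, and it came to 0.942 when the clusters shared by both libraries were given equal weight and 0.910 with equal weight per nucleus. Principal cell-like and intercalated type A-like nuclei had Ndst1 ratios of 0.660 and 0.541, both with intervals that spanned 1. Thinning nuclei to 1000 UMIs moved them to 0.147 and 0.199, and equal weight per nucleus moved the principal cell-like ratio to 0.977, short of 1.5-fold.

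Glce (chromosome 9, 62057248 to 62122655, minus strand), the epimerase, had no class that stood apart. Over the 9 classes its levels ran from 15.8 CPM in intercalated type B-like (4 UMIs) to 37.0 in intercalated type A-like nuclei (7 UMIs) in sham, and from 11.4 in intercalated type A-like (4 UMIs) to 50.3 in endothelium-like nuclei after nephrectomy. The highest and next classes were 1.08-fold apart in sham (0.390 to 2.59) and 1.17-fold after nephrectomy (0.675 to 2.11). Proximal tubule-like nuclei were not made up alike in the 2 libraries. Glce there was 28.3 CPM in sham (318 UMIs) and 40.4 after nephrectomy (549 UMIs), a ratio of 1.42 (1.24 to 1.64). Its ratios above 1.5, in fibroblast-like and intercalated type B-like nuclei, rested on 29 UMIs each over both libraries and their intervals spanned 1.

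Hs2st1 (chromosome 3, 144429706 to 144570181, minus strand), the 2-O-sulfotransferase, was highest among the 9 larger classes in fibroblast-like and podocyte-like nuclei, whose intervals overlapped in both libraries. The small parietal epithelium-like class had 185 (14 UMIs) and 169 CPM (67 UMIs). Fibroblast-like nuclei had 202 CPM in sham (157 to 256, 69 UMIs) and 133 after nephrectomy (102 to 170, 62 UMIs), a ratio of 0.658 (0.459 to 0.941). The value lay near the 1.5-fold limit, and was past it in 7 of 13 alternative settings. In fibroblast-like nuclei 13.4% of all genes were at least 1.5-fold higher and 15.5% lower. Podocyte-like nuclei had 160 and 145 CPM, with a ratio of 0.908 (0.622 to 1.34). Intercalated type B-like nuclei had 32 and 46 UMIs and a ratio of 0.565 (0.352 to 0.917), which reversed when nuclei were thinned to equal depth.

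The 6-O-sulfotransferases were detected in different places. Hs6st3 (chromosome 14, 119138341 to 119869815, plus strand) had its highest levels in intercalated-like nuclei, the acid-base handling cells of the collecting system. Type B-like nuclei had 206 CPM in sham (154 to 270) and 282 after nephrectomy (242 to 326), and type A-like nuclei 153 (103 to 220) and 475 (405 to 552). Together with endothelium-like and proximal tubule-like nuclei, which had 37 and 34 UMIs in sham, these classes carried most of the 172 sham and 469 nephrectomy UMIs of the gene. Podocyte-like and fibroblast-like nuclei had 0 UMIs in both libraries, which allows at most 11.4 and 4.96 CPM in the podocyte-like and 8.78 and 6.43 CPM in the fibroblast-like class, taking 3 UMIs as the limit of a count of 0. Of the classes near intercalated cells along the tubule, distal convoluted or connecting tubule-like nuclei had 1 UMI in each library. Principal cell-like nuclei had 13 UMIs in sham (31.9 CPM) and 6 after nephrectomy (8.98 CPM). The free RNA estimates for that class, made from proximal tubule markers, were 0.401 and 1.35 UMIs. Summed intercalated type A markers in it were 140 and 15 CPM and type B markers 39.3 and 7.48 CPM, and their part was not tested.

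In intercalated type A-like nuclei Hs6st3 was 3.10-fold higher after nephrectomy (2.08 to 4.77), from 29 against 166 UMIs. In this class 17.5% of all genes were at least 1.5-fold higher and 15.8% lower. A UMI was found in 7 of 31 sham nuclei and 17 of 39 nephrectomy nuclei, and in 0.418% and 0.307% of distal convoluted or connecting tubule-like nuclei, taken as the background, whose median depth was 7280 and 9480 UMIs against 5146 and 8013 in the type A-like class. The highest single nucleus held 13 UMIs in sham and 39 after nephrectomy, and the 3 highest held 23 and 84. The ratio was 4.34 without the highest nucleus of each library and 2.04 with nuclei thinned to 1000 UMIs, and it passed 1.5-fold in each of the 10 settings. Summed proximal tubule markers in this class were 2360 CPM in sham and 961 after nephrectomy, with all 13 detected in both. Blood endothelium markers were 803 (9 of 9 detected) and 209 CPM (7 of 9), and principal cell markers 285 (7 of 7) and 517 CPM (6 of 7). The part of these lists in the result was not tested. Subtracting estimated free RNA gave a ratio of 3.13. In type B-like nuclei the ratio was 1.37 (1.00 to 1.90), with a UMI in 9 of 34 and 14 of 54 nuclei and with 32 and 60 UMIs in the highest nucleus. Without those 2 nuclei it was 2.30, so single nuclei set much of that value. Summed proximal tubule markers in type B-like nuclei were 728 and 2496 CPM (13 of 13 detected in both), connecting tubule markers 7423 and 2096 CPM (5 of 5 in both), thick ascending limb markers 483 and 1237 CPM (7 of 7 in both) and blood endothelium markers 23.7 (5 of 9) and 591 CPM (9 of 9), and their part was not tested.

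Outside the intercalated-like classes, too, Hs6st3 rested on few nuclei. In blood endothelium-like nuclei its UMIs numbered 37 in sham and 10 after nephrectomy, in 5 nuclei of each library, and 3 nuclei held 32 of the 37. The ratio there was 0.211 (0.0938 to 0.434), and thinning moved it to 1.06. In proximal tubule-like nuclei 34 and 69 UMIs in 14 and 23 nuclei gave a ratio of 1.67 (1.10 to 2.60), beside 11.1% of all genes higher and 11.6% lower, and giving the clusters shared by both libraries equal weight gave 1.09. Over the whole library the ratio of 2.08 (1.74 to 2.49) came from UMIs in 46 of 2810 and 74 of 3010 nuclei. Intercalated-like nuclei made up a larger part of the UMIs after nephrectomy: type B-like 1.34% in sham and 2.59% after nephrectomy, and type A-like 1.00% and 1.41%. As shares of nuclei, type B-like were 1.21% and 1.79% and type A-like 1.1% and 1.3%. The whole-library sum alone does not separate the number of nuclei of a class from the level within it, and the part of each was not tested.

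Hs6st2 (chromosome X, 51387212 to 51681856, minus strand) had its highest levels in other classes. Thin limb-like nuclei had 158 CPM in sham (93.6 to 250, 18 UMIs) and 257 after nephrectomy (165 to 382, 24 UMIs). Parietal epithelium-like nuclei, which line Bowman's capsule, had 119 (54.4 to 226, 9 UMIs) and 182 (142 to 229, 72 UMIs). That class joins 2 clusters, and the one with 7 sham and 25 nephrectomy nuclei carried 4 of the 6 injured proximal tubule markers beside 3 of the 4 parietal ones, with Vcam1 and Ncam1 among its leading genes. Hs6st2 stood at 130 and 65.2 CPM in that cluster and at 102 and 344 CPM in the other, which carried all 4 parietal markers. Among the 9 larger classes fibroblast-like nuclei led, with 52.7 CPM (31.2 to 83.3) and 32.1 (18.0 to 53.0), although 3 nuclei held 15 of the 18 sham and 11 of the 15 nephrectomy UMIs. Podocyte-like and intercalated type A-like nuclei had 0 UMIs of Hs6st2 in both libraries.

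Within proximal tubule-like nuclei Hs6st2 was concentrated in 1 of the clusters, which held 115 of 125 UMIs in sham (92.0%) and 94 of 111 after nephrectomy (84.7%). Its level there was 51.9 CPM (42.9 to 62.3) and 46.8 CPM (37.8 to 57.3), against at most 1.56 and 4.39 CPM in any other proximal tubule-like cluster. That cluster carried Cyp7b1, a marker of the last proximal tubule segment in mouse, at 2761 and 1867 CPM, against 15.4 CPM in the other proximal tubule-like nuclei of each library. Of the other markers of that segment, Slc7a13 was at 1784 and 492 CPM against 467 and 32.6, while Slc22a30 was nearly even, at 1073 and 450 CPM against 866 and 379. Both were also among the leading genes of another proximal tubule-like cluster. Its level of Slc5a2, the glucose transporter of the first segment, was 64.6 and 25.4 CPM against 412 and 313. The genes of the heparan sulfate pathway played no part in forming the clusters. The 2 libraries had overlapping Hs6st2 intervals in this cluster. The whole class ratio was 0.733 (0.562 to 0.954), and 0.958 when the shared clusters had equal weight.

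In thick ascending limb-like nuclei Hs6st2 counted 2 UMIs in sham and 26 after nephrectomy, which gave a ratio of 10.8 (2.69 to 93.5). The sham count was not above the free RNA estimate of 2.34 UMIs, and the nephrectomy estimate was 2.47. This is a class where 9.77% of all genes were at least 1.5-fold higher and 12.5% lower. The 26 UMIs lay in 6 of 379 nuclei and 3 of these held 20. With doublet-like nuclei kept the ratio was 2.50. Over the whole library Hs6st2 had 204 and 274 UMIs and a ratio of 1.02 (0.851 to 1.23), with ratios on either side of 1 among the classes. The other gene of this step, Hs6st1, was not among the 10 and had a whole-library ratio of 0.975 (0.915 to 1.04).

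Of the sulfatases, Sulf1 (chromosome 1, 12692277 to 12861192, plus strand) had its highest level in podocyte-like nuclei in both libraries. Podocyte-like nuclei made up 1.39% of the UMIs of the sham library and held 67.8% of its Sulf1 UMIs, and 2.44% and 57.6% after nephrectomy. The level was 515 CPM in sham (431 to 609, 135 UMIs) and 430 after nephrectomy (379 to 485, 260 UMIs). The intervals overlapped, and the ratio of 0.835 (0.675 to 1.04) spanned 1. A Sulf1 UMI was found in 86.7% and 85.9% of podocyte-like nuclei, and in 0.228% and 0.637% of proximal tubule-like nuclei, which were deeper (median 7534 and 8637 UMIs, against 5631 and 6825.5). Distal convoluted or connecting tubule-like and principal cell-like nuclei had 0 Sulf1 UMIs in both libraries, which in the former allows at most 1.51 and 0.899 CPM.

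**Figure D3:**
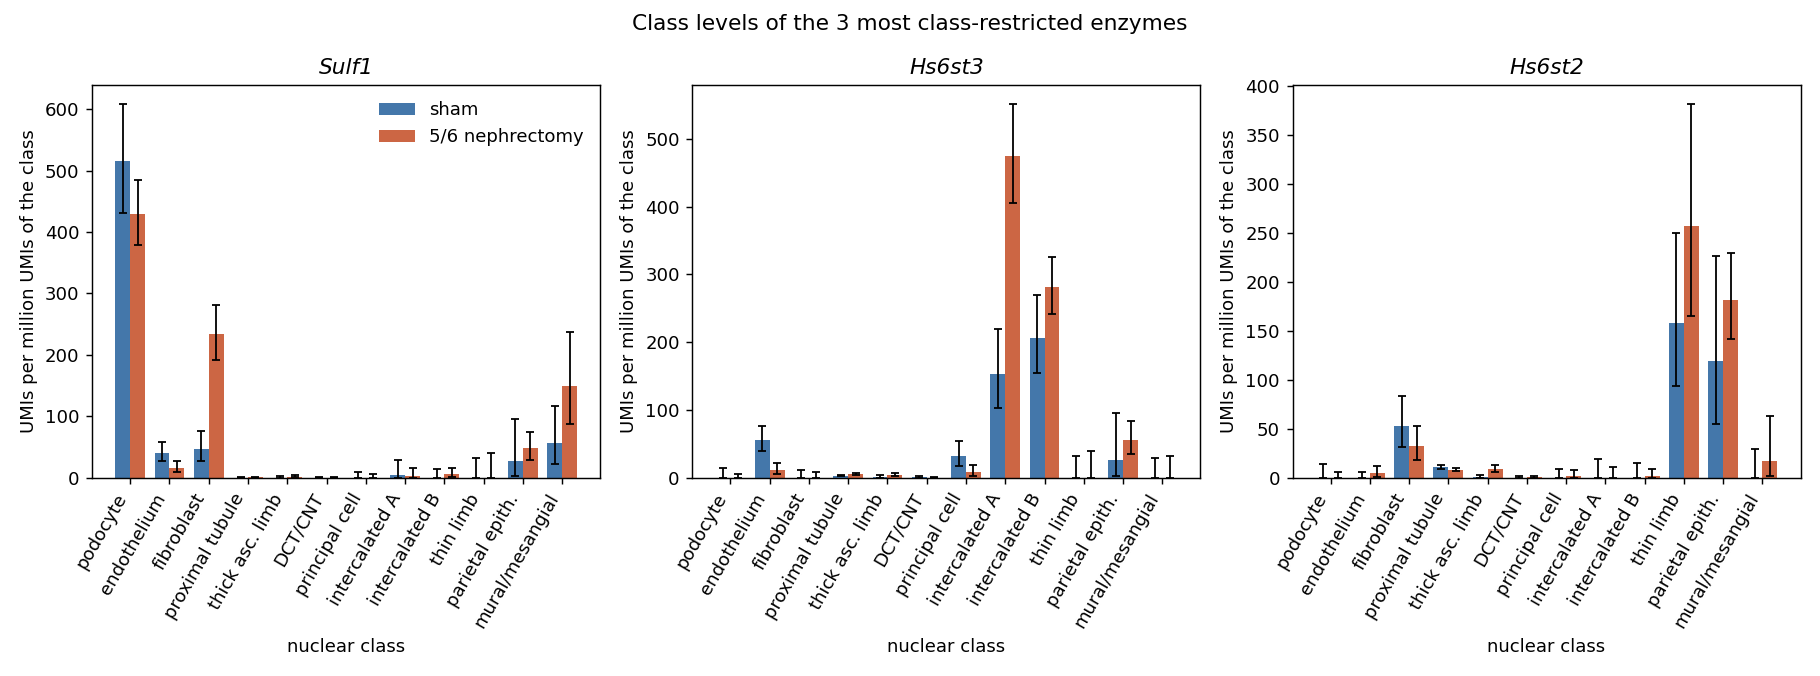
CPM of Sulf1, Hs6st3 and Hs6st2 (y axis) in 12 nuclear classes (x axis), with bars for the sham and 5/6 nephrectomy libraries and 95% Poisson intervals for counting error. Sulf1 stands at 515 and 430 CPM in podocyte-like nuclei and at 46.8 and 234 CPM in fibroblast-like nuclei, Hs6st3 stands at 153 and 475 CPM in intercalated type A-like nuclei, and Hs6st2 at 158 and 257 CPM in thin limb-like nuclei.

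The libraries differed in Sulf1 in fibroblast-like nuclei. The class held 16 Sulf1 UMIs in sham and 109 after nephrectomy, or 46.8 CPM (26.8 to 76.1) and 234 CPM (192 to 282). The intervals lay far apart and the ratio was 4.99 (2.94 to 9.03). In the sham library podocyte-like nuclei had 11 times the fibroblast-like level (6.53 to 19.8), and after nephrectomy 1.84 times (1.46 to 2.32). A Sulf1 UMI was found in 14 of 78 sham and 32 of 87 nephrectomy fibroblast-like nuclei, at median depths of 3802 and 4296 UMIs. At least 3 UMIs were found in 0 sham nuclei and 15 nephrectomy nuclei, so the difference was not that of 1 nucleus, although 1 nephrectomy nucleus alone held 32. Without the highest nucleus of each library the ratio was 4.08.

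**Figure D4:**
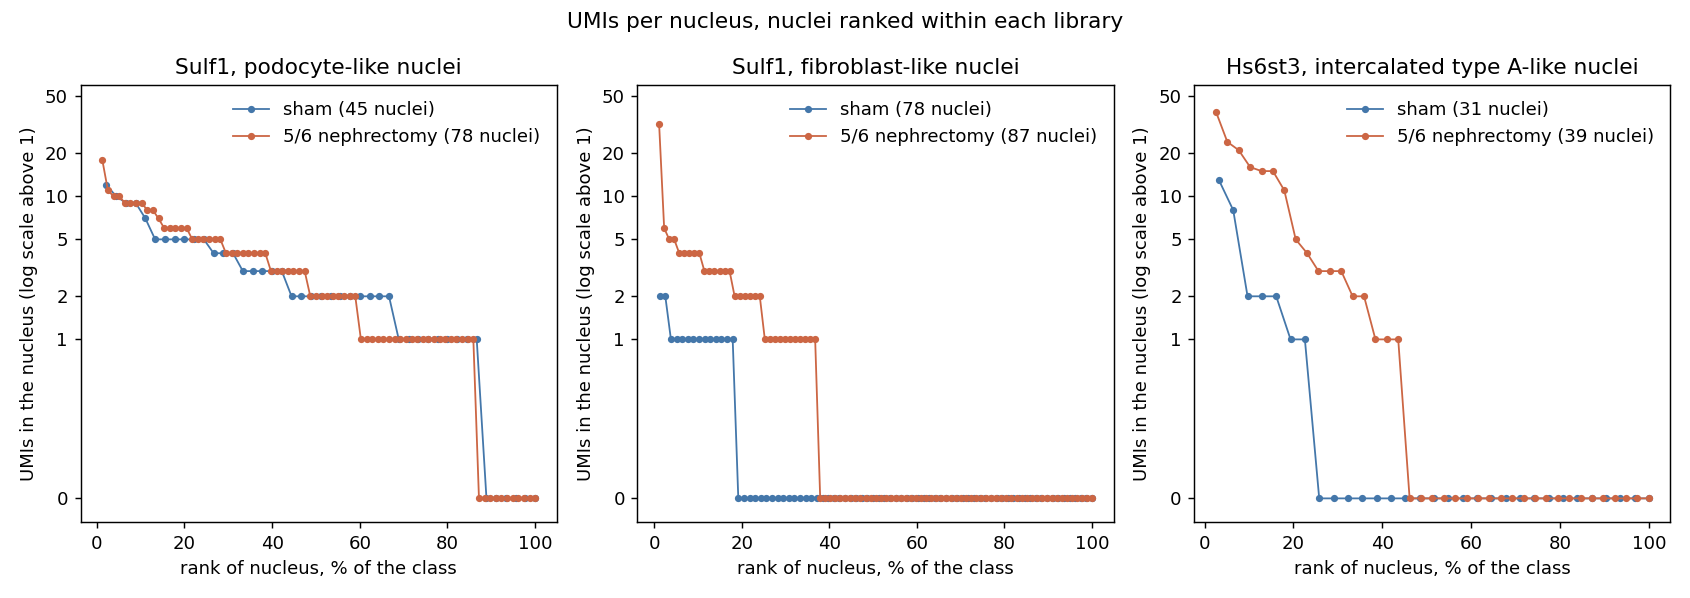
UMIs in each nucleus (y axis, log scale above 1) against the rank of the nucleus within its class and library (x axis, percent of nuclei), for Sulf1 in podocyte-like and fibroblast-like nuclei and Hs6st3 in intercalated type A-like nuclei. The 2 libraries run together for Sulf1 in podocyte-like nuclei, while among fibroblast-like nuclei 17.9% (sham) and 36.8% (nephrectomy) have a Sulf1 UMI.

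Marker levels of the fibroblast-like class also differed between the libraries, some higher and some lower after nephrectomy. Of the podocyte markers, Nphs1, which encodes nephrin of the slit diaphragm, had 0 UMIs in sham and 1 in nephrectomy fibroblast-like nuclei, and Wt1, a transcription factor of podocytes, had 1 and 8. The 7 podocyte markers together had 34 UMIs in sham (99.5 CPM, 6 of 7 detected) and 69 after nephrectomy (148 CPM, 7 of 7). Blood endothelium markers in the class were 823 and 1185 CPM (9 of 9 detected in both), and connecting tubule markers 445 and 842 CPM (4 of 5, Trpv5 at 0 in both). Lower after nephrectomy were proximal tubule markers, at 1950 and 1500 CPM, thick ascending limb markers, at 796 and 450 CPM, and mural and mesangial markers, at 919 and 851 CPM. The part of these lists in the Sulf1 difference was not tested. In the larger and deeper of the 2 fibroblast-like clusters, with 62 and 63 nuclei, the Sulf1 levels were 56.0 and 259 CPM. The free RNA estimated from proximal tubule markers came to 0.640 and 1.36 of the 16 and 109 UMIs. Thinned to 1000 UMIs per nucleus, a Sulf1 UMI was found in 7.69% (sham) and 12.6% (nephrectomy) of nuclei and the ratio was 2.84. The summed level of the 7 fibroblast markers was itself 4007 CPM in sham and 7085 after nephrectomy, all 7 being detected in both, and its part in the Sulf1 difference was not tested.

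Sulf1 went the other way in blood endothelium-like nuclei, at 40.3 CPM in sham (26.6 to 58.7, 27 UMIs in 16 of 210 nuclei) and 16.4 after nephrectomy (8.95 to 27.5, 14 UMIs in 11 of 238 nuclei). The intervals overlapped slightly, and the ratio was 0.406 (0.197 to 0.801). It stayed under 0.667 in the 12 settings tried, between 0.265 and 0.476. The 7 podocyte markers together were 1033 CPM in this class in sham (6 of 7 detected, Wt1 at 0) and 1073 after nephrectomy (7 of 7), with 3 and 1 UMIs of Nphs1. In the small mural and mesangial-like class Sulf1 had 7 and 17 UMIs, each in 3 nuclei, and in parietal epithelium-like nuclei 2 and 19 UMIs, 13 of the latter in 1 nucleus. Over the whole library Sulf1 was at 10.5 CPM in sham and 18.2 after nephrectomy, a ratio of 1.73 (1.46 to 2.05). The podocyte-like share of the nuclei was 1.60% in sham and 2.59% after nephrectomy. The whole-library ratio was 2.30 without podocyte-like nuclei and 1.39 with nuclei thinned to equal depth.

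Sulf2 (chromosome 2, 166073089 to 166155663, minus strand), the second sulfatase, was highest in other classes than Sulf1 and differed little between the libraries. Its highest class, endothelium-like, also held Sulf1 UMIs. Endothelium-like nuclei had 52.3 CPM in sham (36.4 to 72.7, 35 UMIs) and 45.6 after nephrectomy (32.4 to 62.3, 39 UMIs). Distal convoluted or connecting tubule-like nuclei had 35.2 and 32.9 CPM, and thick ascending limb-like nuclei 29.5 and 35.8. The intervals of neighbours among these 3 classes overlapped in both libraries, while proximal tubule-like nuclei were lower, at 6.24 (4.86 to 7.88) and 6.91 CPM (5.59 to 8.46). In each of the 4 classes with at least 20 UMIs the ratio lay between 0.872 and 1.21 with an interval that spanned 1, and over the whole library it was 1.03 (0.879 to 1.20). Fibroblast-like nuclei, where Sulf1 differed, had 5 and 6 Sulf2 UMIs.

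The other genes of the pathway were counted in the same way. Of 68 other genes for the linker, further sulfotransferases, core proteins, breakdown, sugar and sulfate supply and receptors that need heparan sulfate, 65 had at least 20 UMIs, and 4 were at least 1.5-fold higher and 1 lower over the whole library, where 9.59% of all genes were higher and 10.8% lower. Their median log2 ratio was -0.037, against 0.206 for the 10 genes and 0.0186 for all genes tested. The higher ones were Gpc3, a glypican core protein (428 and 1254 UMIs, ratio 2.23, 2 to 2.5), and the sulfotransferases Ndst4 (10 and 31 UMIs, 2.36, 1.13 to 5.4), Hs3st4 (18 and 45 UMIs, 1.91, 1.08 to 3.5) and Hs3st5 (31 and 61 UMIs, 1.5, 0.958 to 2.39, which spans 1). The lower one was Ndst3 (78 and 67 UMIs, 0.655, 0.465 to 0.920), a relative of Ndst1 that was among the leading genes of a mural and mesangial-like cluster. The 7 linker genes, which build the stub on which Extl3 acts, had a median ratio of 0.805, and 0 of them passed 1.5-fold. Xylt1, which adds the first sugar of the stub, had 2828 and 2836 UMIs and a ratio of 0.765 (0.725 to 0.806).

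Some core proteins and receptors differed within single classes. In proximal tubule-like nuclei the glypican Gpc3 was 10.5 and 36.9 CPM (ratio 3.51, 2.87 to 4.33), while Gpc5 was 41.8 and 11.2 CPM (0.267, 0.221 to 0.322). Gpc5 went the other way in thick ascending limb-like nuclei, at 487 and 755 CPM (1.55, 1.44 to 1.67). Among receptors in proximal tubule-like nuclei, the VEGF and semaphorin co-receptor Nrp1 had a ratio of 2.48 (2.27 to 2.71) and the hepatocyte growth factor receptor Met one of 0.557 (0.523 to 0.593). These values were not weighed for the unequal make-up of that class.

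For each of the 10 genes, the 2 genes whose levels ran most alike were found by Pearson r of log2(CPM + 1) over the 18 points of 9 classes and 2 libraries, among 11084 genes with at least 200 UMIs. These r describe points that share 2 libraries and very unequal depths. Sulf1 was most like C1qtnf7 (0.956) and Speg (0.947), Hs6st3 most like Atp6ap2 (0.919), an accessory protein of the vacuolar proton pump, and Col4a3bp (0.895), and Hs6st2 most like Lamb3 (0.899) and Dtx4 (0.876). For Ext2 they were Wipf3 and Tdrd5 (both 0.905), for Extl3 Igfbp3 (0.900) and Ttc28 (0.894), and for Hs2st1 Pigk (0.908) and Gab2 (0.847). Ext1 (Tec 0.829, Reps2 0.809), Ndst1 (Irx1 0.862, Gpi1 0.841), Glce (Zfp281 0.816, Cinp 0.809) and Sulf2 (Spcs3 0.829, Prkd1 0.827) had looser ones. Among the 10 genes themselves, the closest pair was Sulf1 and Ext2 (r 0.822), which share their highest class, and the most opposed was Ndst1 and Hs2st1 (r -0.631).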

How the data were processed

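The 2 kidney single-nucleus libraries, 1 per group, were compared. The authors deposited raw UMI counts per gene and barcode, made with Cell Ranger on mm10 (version 7.1.0 per the submitters' processing notes, 7.0.1 per the file headers). Whether intronic reads were counted is not given in the sources used here. Positions came from GENCODE M21, which holds 32158 of the 32285 identifiers.

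Barcodes under 200 genes or above 10% mitochondrial UMIs were dropped (109 sham, 112 nephrectomy). Scrublet called 0 and 1 doublets, so the highest 3% of scores in each library and 2 clusters with at least 20% of such nuclei were removed instead (165 and 177 nuclei). Scanpy 1.11.5 clustered the rest on 2000 variable genes, 30 components, 15 neighbours and Leiden resolution 1, with ambiguous clusters split at 0.5. A class name needed at least 3 markers, and a low-depth cluster 2 more than any other type, a rule revised after seeing the data; 309 sham and 218 nephrectomy nuclei stayed unnamed. One marker gene is not reported here.

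UMIs were summed per class and library and divided by the class total. Levels have exact Poisson, shares exact Clopper-Pearson and ratios exact conditional binomial intervals at 95%. A gene counted as higher or lower at 1.5-fold or more with at least 20 UMIs. The interval code was tested on simulated counts. The 10 genes, the pathway lists (79 names, 78 found), the markers and the alternatives were chosen with earlier results of these data known. Eligible to be named were the 10 genes, the 2 highest and 2 lowest of each other list, list genes past 1.5-fold with at least 100 UMIs in a class, and the 2 genes most alike to each of the 10.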

Additional observations from a re-analysis of the deposited data

Results flagged for a closer look

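In 2 genes, classes moved past 1.5-fold in opposite directions with counting intervals that left out 1. How many of all genes met this rule was not counted, so the 2 genes are given as single cases. Sulf1 had a ratio of nephrectomy to sham of 4.99 in fibroblast-like nuclei and 0.406 in blood endothelium-like nuclei. Hs6st3 had ratios of 3.10 in intercalated type A-like, 1.67 in proximal tubule-like and 0.211 in blood endothelium-like nuclei. With 1 library per group, the differences between classes were not tested. The endothelial Hs6st3 value rested on 5 nuclei in each library.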

How the results depend on the processing

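No paired analysis was possible because each group has 1 library, and for the same reason no replicate could be left out. The count of enzymes at least 1.5-fold higher over the whole library was 2, and 1 at 2-fold. The 8 gene and class pairs at least 1.5-fold higher became 17 with nuclei thinned to 1000 UMIs and 5 with doublet-like nuclei kept, at a minimum of 50 UMIs, at 2-fold or at Leiden resolution 0.5. The 10 lower pairs became 3 at a minimum of 50 UMIs, 2 at 2-fold and 5 at Leiden resolution 0.5. At that resolution both intercalated-like classes fell in 1 unnamed cluster, so that 3 of the 8 higher and 3 of the 10 lower pairs could not be counted. Under thinning, ratios turned for Hs6st3 in blood endothelium-like (1.06), Glce in fibroblast-like (0.448), Hs6st2 in fibroblast-like (2.24) and Hs2st1 in intercalated type B-like nuclei (1.94), and Hs6st2 in fibroblast-like nuclei also turned at a mitochondrial limit of 5% (1.34). Thinning leaves fewer UMIs; the cause of the other shifts was not tested. TMM scaling shifted intercalated type A-like ratios by 0.105 (log2) and the other classes by less than 0.1. Subtraction of free RNA gave no whole-library value. The checks of nuclei by Nphs1 UMIs (which left out no Sulf1 UMI and so could not test Sulf1), of the highest nucleus, of the deeper fibroblast-like cluster and without podocyte-like nuclei were chosen after seeing the data.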

Other observations

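In an unnamed cluster led by cell division genes such as Top2a, with 15 sham and 12 nephrectomy nuclei, Hs6st2 had 25 UMIs in sham (184 CPM, 119 to 271) and 2 after nephrectomy (8.28 CPM, 1.00 to 29.9). A single sham nucleus held 21 of the 25, and without it the sham level was 34.4 CPM. Hpse2, a heparanase relative that does not cut the chain, and Ndst3 were among the leading genes of a mural and mesangial-like cluster. Over the mural and mesangial-like class Hpse2 had 98 and 185 UMIs (785 and 1620 CPM) and Ndst3 76 and 54 (609 and 473 CPM). Hs6st2 also differed between the 2 parietal epithelium-like clusters of the nephrectomy library, at 344 CPM (260 to 445) in 21 nuclei and 65.2 CPM (36.5 to 107) in 25. The Hs6st2 UMIs lay in 11 of the 21 and 2 of the 25 nuclei. The cluster of 21 also held 17 of the 19 Sulf1 and 20 of the 22 Hs6st3 UMIs of that class, each in 4 nuclei, and 1 nucleus held 13 of those Sulf1 UMIs.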
